A study of Mus musculus with 7899 samples.

Results

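The genes Gadd45a, Gadd45b and Gadd45g were followed in β cells of female C57BL/6J mice through pregnancy, after delivery, in knockouts of Acss2, Stat3 and p300, under high-fat feeding and in islet culture. They were found by their symbols and are 3 of the 21767 genes in the longest of the 7 deposited count tables, and every table holds all 3. The family was selected on a measured value, the difference of Gadd45b between gestation day 3.5 and day 0 in earlier results of these data. For Gadd45b, every time-course difference from day 0 is therefore given as a description with no test, and for all 3 genes the day 3.5 difference is given in the same way.

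Gadd45 proteins are small acidic nuclear proteins made quickly when cells meet DNA damage, nutrient shortage, cytokines or growth signals. They have no enzyme activity of their own and act by binding partners: the kinase Map3k4, which starts the p38 and JNK cascades, the kinase Map2k7, which Gadd45b can block, the cell-cycle proteins Cdkn1a, Pcna and Cdk1 with cyclin B1, and enzymes of DNA repair and DNA demethylation. Gadd45a is a classic p53 target, Gadd45b is known as an NF-κB and TGF-β response gene, and Gadd45g as a cytokine-induced gene.

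Each of 7897 samples was 1 sorted β cell sequenced with Smart-seq3xpress, a plate-based full-length RNA method, and 2 droplet samples of whole islets were not analysed here. The labels put the cells in 48 groups, and the reads of all cells that share a group and replicate were added up, giving 100 libraries, 2 per group, or 3 in the time-course groups G14.5, G18.5 and P14L and in HFD_G14.5. The time course, on standard diet and with no genotype named, ran from G0 over G3.5, G5.5 and G6.5 and then every 2 days to G18.5, where the number is the day of gestation, and over P2, P7 and P14, days after delivery marked L or NL, read as lactating or not lactating. Mice labelled Acss2 or Stat3 knockout (KO) and wild type (WT) were sampled at G0, G14.5 and G18.5, and p300 (Ep300) pairs at the first and second of these stages, all on standard diet. On the high-fat diet (HFD) there were mice with no genotype named at G0, G14.5 and P7NL, Acss2 knockouts and wild types at G0 and G14.5, and beside them Acss2 wild types on standard diet (SD) at G14.5. Islets were also cultured for 4 days in 20% human serum, normal (NS) or maternal (MS), with 5 µM A485, an inhibitor of the acetyltransferases p300 and CBP, with 20 µM nifuroxazide (Nif), an inhibitor of STAT3 signalling, or with the vehicle DMSO. Not given in the sources used here are the mice's age, the promoter driving each deletion and the markers of the cell sort.

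Libraries held 13273435 to 181405413 reads from 21 to 160 cells, and Ins1 and Ins2 took 33.04% to 69.8% of the reads. Levels are given in CPM, read counts scaled to library size with TMM factors. Replicates are those the labels number, so p-values measure the spread between these libraries, which may be technical where nothing says they came from separate mice. In the time course the summed acinar markers reached at most 7.84 CPM and the stromal ones 1.60 CPM, while α-cell markers lay between 786 and 4900 CPM and β-cell markers between 516000 and 654000 CPM. The targeted genes checked the labels. Acss2 was 18.7 ± 4.19 CPM in knockouts and 29.8 ± 3.49 CPM in wild types at G18.5 (SD, n = 2 each), and the knockout mean was the lower one in every other Acss2 pair. Ep300 was 13.9 ± 2.82 against 30.5 ± 8.80 CPM at G0 (SD, n = 2 each), and no Ep300 level at G14.5 is given here. Reads of Acss2 and Ep300 thus also stayed in libraries labelled knockout, which limits directions drawn from those labels. Stat3 in the libraries labelled Stat3 knockout was 57.7 ± 11.8, 70.5 ± 4.46 and 64.1 ± 4.75 CPM at G0, G14.5 and G18.5, against 68.3 ± 3.47, 85.3 ± 6.99 and 82.4 ± 5.83 CPM in wild types (SD, n = 2 each), so reads of Stat3 stayed in those libraries and directions drawn from that label carry this limit.

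The 3 genes lie on different chromosomes of GRCm38 (GENCODE M21): Gadd45a (ENSMUSG00000036390) at chr6:67035096-67037457 on the minus strand, Gadd45b (ENSMUSG00000015312) at chr10:80930073-80932204 on the plus strand and Gadd45g (ENSMUSG00000021453) at chr13:51846678-51848468 on the plus strand. Exons of Gadd45a share 337 bases with E230016M11Rik on the opposite strand, and because no source used here gives the strand setting of the counting, reads of that stretch cannot be assigned to one of the genes with certainty. The bases just upstream of the starts are shown because Gadd45a and Gadd45g rose together in gestation while Gadd45b followed another course, and capitals mark the motifs found by a search of both strands. All 3 sequences are from RefSeq on GRCm38.p6, 5′ to 3′ on the gene's strand, at chr6:67037458-67037657, chr10:80929841-80930072 and chr13:51846425-51846674.
Gadd45a: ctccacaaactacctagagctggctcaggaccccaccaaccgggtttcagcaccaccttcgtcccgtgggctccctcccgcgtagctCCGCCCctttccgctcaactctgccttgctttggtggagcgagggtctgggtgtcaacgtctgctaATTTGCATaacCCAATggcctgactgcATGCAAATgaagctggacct
Gadd45b: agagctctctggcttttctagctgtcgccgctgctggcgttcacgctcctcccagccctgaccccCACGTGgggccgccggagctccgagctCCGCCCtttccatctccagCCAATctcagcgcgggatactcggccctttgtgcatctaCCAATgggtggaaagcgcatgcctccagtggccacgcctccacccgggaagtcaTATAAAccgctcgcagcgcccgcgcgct
Gadd45g: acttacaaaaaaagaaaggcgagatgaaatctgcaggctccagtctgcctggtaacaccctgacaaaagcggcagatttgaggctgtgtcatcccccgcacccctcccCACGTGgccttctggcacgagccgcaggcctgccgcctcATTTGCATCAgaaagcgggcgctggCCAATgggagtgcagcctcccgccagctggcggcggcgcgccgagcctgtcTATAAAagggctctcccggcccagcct
In Gadd45a the capitals are a GC box (GGGCGG, here as its reverse complement), a CCAAT box and 2 octamer motifs (ATTTGCAT, one in each orientation). In Gadd45b they are an E-box (CACGTG), a reversed GC box, 2 CCAAT boxes and TATAAA. In Gadd45g they are an E-box, an octamer that overlaps an ATF4-type motif (TGATGNAA, reversed), a CCAAT box and TATAAA. Among all 32851 promoter windows of 300 bases, 1.74% hold the octamer, 3.97% the ATF4-type motif, 7.15% the E-box, 13.6% TATAAA, 35.7% the GC box and 37.4% CCAAT. The octamer was thus the match shared by Gadd45a and Gadd45g and missing from the Gadd45b window. Other matches were shared differently: the E-box and TATAAA by Gadd45b and Gadd45g, the GC box by Gadd45a and Gadd45b, and CCAAT by all 3. A link of any motif with the levels was not tested. No window of the 3 held AP-1 (TGANTCA, in 7.81% of windows), CRE (TGACGTCA, 1.79%), STAT (TTCNNNGAA, 8.30%), FoxO (GTAAACA, 3.65%), SMAD (CAGACA, 21%) or NF-κB letters (GGGNNTTCC, 5.82%, and the variant with 1 more T, 1.63%), which says only that these letters are not there.

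Gadd45g was the most abundant of the family in β cells. Its median over the 100 libraries was 177.5 CPM (range 80.2 to 325), against 25.3 CPM for Gadd45b (0.335 to 56.9) and 10.9 CPM for Gadd45a (1.16 to 77.8). Per kilobase of gene length Gadd45g was highest in 100 of 100 libraries, and Gadd45b was above Gadd45a in 76 and below it in 24. Shares of cells with a read had the same order. With each cell thinned to 200000 reads, the median library had a Gadd45g read in 99.6% of cells, a Gadd45b read in 60.9% and a Gadd45a read in 45%. Unthinned, these shares were 100%, 71.5% and 57.6%, and 47 of 7897 cells were too shallow to thin. Reads of the scarcer genes were concentrated in few cells, since the 10% of cells with most reads of a gene held a median of 55% of Gadd45a, 44.7% of Gadd45b and 29.1% of Gadd45g reads. A summed level cannot tell fewer cells with transcripts from fewer transcripts per cell, so shares of cells are given beside the main results.

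Gadd45a was higher from the middle of gestation to term. Its 2 G0 libraries read 2.78 and 5.83 CPM, and the early stages overlapped them, with 3.94 and 4.00 CPM at G3.5 and 3.21 and 2.37 CPM at G5.5. G6.5 gave 9.64 and 5.74 CPM, G8.5 9.43 and 12.4 CPM, G10.5 12.3 and 11.4 CPM, and G12.5 10.6 and 5.86 CPM. Every library of the later stages was above both G0 libraries: 11.9, 16.4 and 26.2 CPM at G14.5, 9.74 and 20.7 CPM at G16.5, and 17.1, 13.2 and 21.7 CPM at G18.5. At G14.5 a read was found in 43.95% to 55.72% of thinned cells per library, against 26.44% and 38.20% at G0. Summed markers of other cells differed in direction between G0 and the stages G14.5 and G18.5. Those of δ cells (at most 261 against 358 and 866 CPM at G0) and hepatocytes (383 to 562 against 956 and 1400 CPM) were lower. Acinar and endothelial markers were also lower. The α-cell markers overlapped G0 (786 to 1750 against 1600 and 3160 CPM), as did PP-cell, ductal and stromal ones. Immune markers overlapped G0 too but reached higher levels than there. The part of all these markers in the result was not tested. After delivery the lactating P7 libraries (12.7 and 17.9 CPM) stood in the range of late gestation, P2L (5.61 and 10.2 CPM) and P14L (8.76, 5.47 and 4.11 CPM) overlapped G0, and the non-lactating libraries lay between 3.60 and 5.78 CPM.

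The model fitted over all genes called Gadd45a higher than G0 in 6 of 14 stages (G3.5 set aside), at an edgeR quasi-likelihood adjusted p under 0.05. The log2 fold changes (± SE) were 1.37 ± 0.42 at G8.5 (adjusted p = 0.0479), 1.49 ± 0.42 at G10.5 (0.0479), 2.11 ± 0.41 at G14.5 (0.000796), 1.85 ± 0.42 at G16.5 (0.00609), 2.04 ± 0.40 at G18.5 (0.0015) and 1.86 ± 0.42 at P7L (0.00822). The share of all 15373 tested genes called in these comparisons, in either direction, was 5.79% at G8.5, 2.76% at G10.5, 10.1% at G14.5, 7.25% at G16.5, 4.77% at G18.5 and 3.35% at P7L. In the stages without a call it was 1.57% at G5.5, 1.65% at G6.5, 5.03% at G12.5, 2.61% at P2L, 0.572% at P2NL, 0.462% at P7NL, 3.43% at P14L and 0.28% at P14NL. All these comparisons share the 2 G0 libraries. Without G0 replicate 1 the calls at G8.5 (0.905, adjusted p = 0.354), G10.5 (1.02, 0.347), G16.5 (1.38, 0.12), G18.5 (1.57, 0.0764) and P7L (1.40, 0.174) were lost, which left G14.5 as the 1 stage called. Without G0 replicate 2 the folds were 1.52 times larger and all 6 stayed called, with log2 folds of 1.97, 2.09, 2.71, 2.45, 2.64 and 2.46 in the order above. G8.5 was also lost without its own replicate 1 (adjusted p = 0.0776) or 2 (0.218), G10.5 without its replicate 1 (0.203) or 2 (0.136), G16.5 without its replicate 2 (0.175) and P7L without its replicate 2 (0.102). Other settings also ended the call at G8.5 (RLE 0.0512, replicate block 0.0511, limma on mean CPM 0.0792, limma on deposited values 0.0781, only the compared groups 0.106), at G10.5 (RLE 0.0531, limma 0.0854 and 0.0524, only the compared groups 0.097) and at G16.5 (only the compared groups 0.0544).

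Gadd45g took a similar course at a higher level, with its highest time-course mean at G8.5. G0 gave 105.6 and 98.6 CPM. G3.5 (143.8 and 155.1 CPM) and G5.5 (147.1 and 148.1 CPM) lay above both, and G6.5 gave 172.7 and 206.9 CPM. G8.5 read 289.1 and 312.1 CPM, G10.5 was lower again at 174.9 and 177.6 CPM (0.79 ± 0.25 from G0, edgeR adjusted p = 0.0779), and later stages gave G12.5 194.5 and 284.5 CPM, G14.5 163.9, 241.0 and 200.6 CPM, G16.5 290.3 and 263.7 CPM, and G18.5 244.2, 208.7 and 322.8 CPM. None of these overlapped G0, and the share of all genes without overlap was not counted. The G0 libraries of the other tables, normalized separately, read 94.6 to 204.5 CPM (median 138.6). That range also holds the G3.5 and G5.5 values, and its median lies above the time-course G0 pair. After delivery P2L gave 167.9 and 218.3 CPM and P7L 238.4 and 156.3 CPM, the non-lactating libraries lay between 96.7 and 157.5 CPM, and P14NL (157.5 and 96.7 CPM) overlapped G0.

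Gadd45g was called higher than G0 in 7 of 14 stages (edgeR). The log2 fold changes were 1.56 ± 0.25 at G8.5 (adjusted p = 0.000217), 1.23 ± 0.25 at G12.5 (0.00227), 0.98 ± 0.23 at G14.5 (0.00486), 1.44 ± 0.25 at G16.5 (0.000323), 1.34 ± 0.23 at G18.5 (0.000298), 0.92 ± 0.25 at P2L (0.035) and 0.95 ± 0.25 at P7L (0.0229), to be read against the shares of called genes given above. G8.5, G16.5 and G18.5 stayed called whichever library was left out. Without G0 replicate 2, G14.5 (0.934, adjusted p = 0.0625), P2L (0.871, 0.22) and P7L (0.902, 0.17) were lost, and without G0 replicate 1, P2L (0.105) and P7L (0.0912). G12.5 was lost without its replicate 2 (0.929, 0.0705), P2L without its replicate 2 (0.476) and P7L without its replicate 1 (0.471), while P14L was gained without its replicate 3 (0.842, 0.0485). With limma on mean CPM the calls at G14.5 (0.0561) and P2L (0.0821) were lost, and with limma on deposited values those at P2L (0.0706) and P7L (0.0663).

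Gadd45b behaved differently: its levels were low at G0, high from the first stage sampled, and uneven afterwards. The 2 G0 libraries gave 3.36 and 4.83 CPM, and G3.5 gave 28.8 and 38.2 CPM, the values that led to the choice of this family. G5.5 (25.9 and 28.6 CPM), G6.5 (20.4 and 22.2 CPM) and G8.5 (22.8 and 18.4 CPM) were lower, and G10.5 was lower again at 8.71 and 8.67 CPM. G12.5 then read 39.1 and 28.1 CPM, G14.5 15.3, 29.3 and 12.6 CPM, G16.5 15.86 and 22.02 CPM, and G18.5 25.8, 37.8 and 19.5 CPM. The highest means were on day 2 after delivery with or without lactation, 52.95 and 26.41 CPM in P2L and 38.7 and 48.8 CPM in P2NL. Later libraries were lower, with 11.9 and 4.06 CPM in P7L, 9.04 and 12.3 CPM in P7NL, 12.9, 19.2 and 2.49 CPM in P14L and 14.9 and 8.95 CPM in P14NL.

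Relative to G0 the log2 fold of Gadd45b was 3.06 ± 0.57 at G3.5, where 0.579% of all genes were called, 2.76 ± 0.57 at G5.5, 1.11 ± 0.55 at G10.5, 3.06 ± 0.57 at G12.5, 2.24 ± 0.53 at G14.5 and 2.78 ± 0.55 at G18.5, all as descriptions. On day 2 after delivery it was 3.30 ± 0.58 in P2L and 3.44 ± 0.58 in P2NL. The P7L value of 0.98 ± 0.55 rested on single libraries, since it ran from 0.0141 to 1.56 when 1 library was left out. At G3.5, Gadd45a differed from G0 by -0.09 ± 0.42 and Gadd45g by 0.55 ± 0.24 on the log2 scale, also with no test. The share of thinned cells with a Gadd45b read was 25.1% in both G0 libraries, 62.5% and 67.9% at G3.5, and 23.6% in replicate 3 of P14L.

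**Figure D1:**
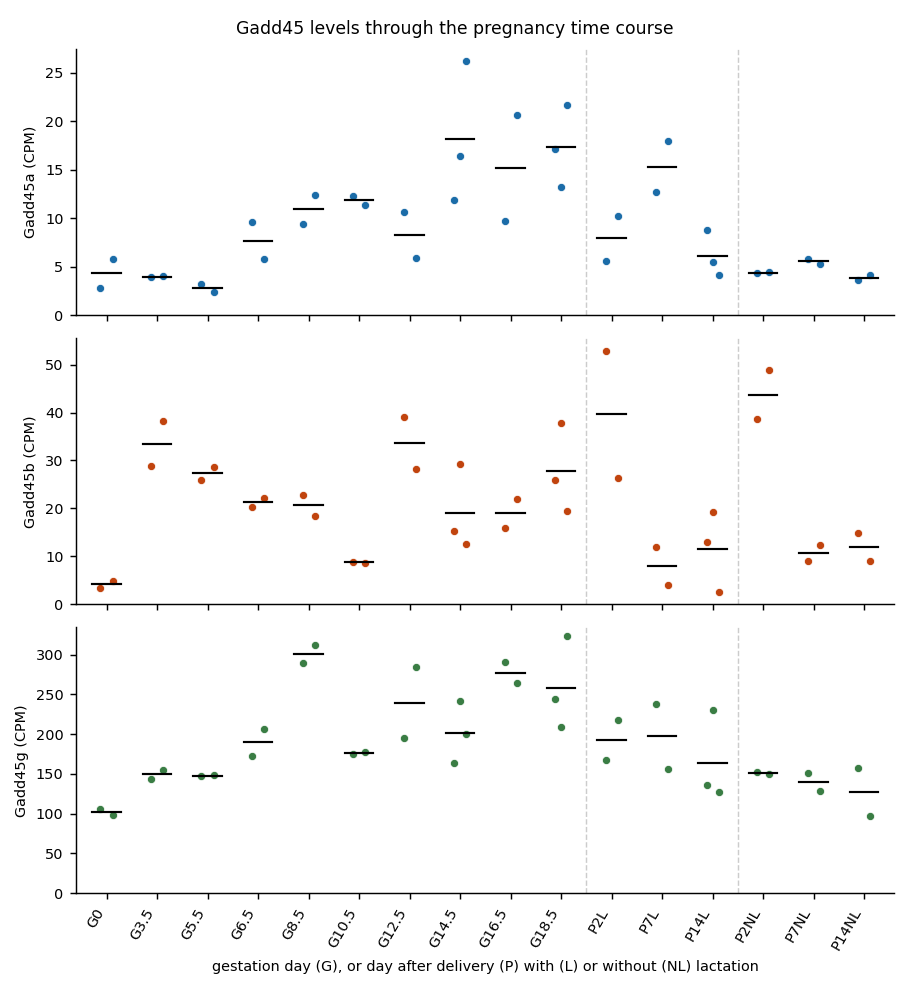
Level of each Gadd45 gene in CPM (vertical axes, linear) in every library of the time course; points are libraries and bars are group means. Gadd45a is highest in late gestation and P7L, Gadd45b is lowest at G0 and highest on day 2 after delivery, and Gadd45g is highest at G8.5.

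To ask whether levels changed among stages without using G0 or G3.5, 1 test of any difference among the other 14 time-course groups was run after the levels had been seen. All 3 genes passed it in edgeR, Gadd45a with F = 9.37 (adjusted p = 2.77e-05), Gadd45b with F = 4.97 (0.00302) and Gadd45g with F = 5.28 (0.00205), beside 15% of all genes. With limma on the mean CPM over cells, Gadd45g no longer passed (F = 2.84, adjusted p = 0.0915). Ordered by mean level, neighbouring groups of the time course were mostly within their spread: of 15 neighbouring pairs, the means stood further apart than their SDs in 2 for Gadd45a (G5.5 below P14NL, and P2NL below P7NL), 1 for Gadd45b (G6.5 below G5.5) and 0 for Gadd45g. Across the 16 group means, Pearson's r on the log2 scale was 0.761 for Gadd45a with Gadd45g, 0.410 for Gadd45b with Gadd45g and -0.0572 for Gadd45a with Gadd45b. In the 32 groups of the other tables, centred per table, these were 0.730, 0.616 and 0.282, as a description of groups that share libraries and plates. The 16 time-course groups include G0 and G3.5, so the values with Gadd45b draw on the levels that led to the choice of genes.

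Gadd45a was lower on day 2 after delivery than at G18.5, with a call only in mice that did not lactate. P2NL (4.29 and 4.48 CPM) was below all 3 G18.5 libraries, with a log2 fold of -1.98 ± 0.39 (edgeR, adjusted p = 0.00388; 1.3% of all genes called). The call was lost without P2NL replicate 1 (-1.95, adjusted p = 0.0887) or 2 (-2.01, 0.122). With lactation the P2L libraries (5.61 and 10.2 CPM) were also below all 3 G18.5 libraries, by -1.13 ± 0.38 (edgeR adjusted p = 0.645; 0.026% called). Lactating libraries were above non-lactating ones at P2 (0.85 ± 0.40, adjusted p = 0.991; 0.124% called) and P7 (1.47 ± 0.41, 0.103; 0.839%) without overlap, but neither passed, and P14 overlapped (0.65 ± 0.38, 0.622; 0.722%). The P7 difference did pass in DESeq2 (adjusted p = 0.037) and with only the compared groups in the fit (0.00528). Gadd45b was not called in any of these 5 comparisons, with log2 folds from -0.42 to 0.66 and 0 unadjusted p-values under 0.05, and neither was Gadd45g, whose value in P2NL against G18.5 was -0.77 ± 0.23 (adjusted p = 0.0971).

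The knockout, wild-type and high-fat-diet sets give G0 and pregnant libraries that had no part in choosing the genes. There Gadd45a was higher at G14.5 in every set and Gadd45b was not called. Tables were normalized separately, so levels across them are set side by side only. The 18 G0 libraries of those sets read 1.16 to 8.30 CPM for Gadd45a (median 3.99), and the 21 libraries at G14.5 read 8.99 to 55.2 CPM (median 21.98). For Gadd45b the same G0 libraries read 10.6 to 55.4 CPM (median 26.4), so the time-course G0 pair at 3.36 and 4.83 CPM lay below all 18. At G14.5 Gadd45b read 15.53 to 49.99 CPM (median 31.98). Gadd45g had a median of 138.6 CPM at G0 (94.6 to 204.5 CPM), above the time-course G0 pair (98.6 and 105.6 CPM), and 239.8 CPM at G14.5. In thinned cells a Gadd45b read was found in 38.83% to 83.70% of cells per G0 library of these sets, against 25.1% in the time course.

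Gadd45a was called higher in pregnancy in 9 of 13 such comparisons in edgeR. Its groups did not overlap in all 13, but how many of all genes did the same was not counted. In Acss2 wild types G0 gave 2.81 and 3.16 CPM, G14.5 22.7 and 25.5 CPM and G18.5 27.96 and 15.79 CPM, log2 folds of 3.01 ± 0.42 (adjusted p = 0.000411; 2.92% of genes called) and 2.87 ± 0.42 (0.000543; 6.89%). In Acss2 knockouts the values were 3.42 and 2.50, 18.4 and 8.99, and 23.02 and 9.66 CPM, with folds of 2.21 ± 0.41 (0.00481; 4.35%) and 2.47 ± 0.41 (0.00232; 2.47%). Both genotypes thus went up by more than the spread of their replicates. In p300 wild types 2.64 and 5.13 CPM rose to 31.1 and 14.2 CPM (2.52 ± 0.41, adjusted p = 0.00807; 2.15%), and in p300 knockouts 4.03 and 5.39 CPM rose to 24.04 and 25.86 CPM (2.41 ± 0.41, 0.00598; 3.27%). In the libraries labelled Stat3 knockout 6.31 and 5.43 CPM rose to 30.12 and 11.98 CPM at G14.5 (1.84 ± 0.42, 0.0329; 1.7%). The other Stat3 comparisons did not pass: 1.25 ± 0.41 in wild types at G14.5 (0.16; 1.74%), 0.85 ± 0.41 in wild types at G18.5 (0.385; 2.06%) and 1.47 ± 0.41 in knockouts at G18.5 (0.112; 1.48%).

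On the high-fat diet, Gadd45a rose from 1.19 and 3.94 to 18.1 and 31.6 CPM in Acss2 wild types (log2 fold 3.30 ± 0.74, edgeR adjusted p = 0.0236; 1.93% of genes called) and from 1.16 and 6.66 to 27.7 and 23.8 CPM in Acss2 knockouts (2.80 ± 0.73, 0.0354; 3.85%). In mice with no genotype named, 3.60 and 4.85 CPM at G0 stood below 18.2, 12.52 and 21.48 CPM at G14.5 (2.04 ± 0.66, 0.125; 1.95%), which passed with only the compared groups in the fit (adjusted p = 0.00244). The diet itself, tested in Acss2 wild types at G14.5, made no call for any member (-0.38 ± 0.66 for Gadd45a, -0.28 ± 0.45 for Gadd45b and 0.37 ± 0.21 for Gadd45g; 0.213% of genes called), and its standard-diet pair was uneven, at 9.43 and 55.2 CPM for Gadd45a.

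Single libraries carried several of these Gadd45a calls. Those in Acss2 wild types at both stages, Acss2 knockouts at G18.5 and p300 wild types held whichever library was left out, although the p300 wild-type value fell to 1.84 (adjusted p = 0.0347) without G14.5 replicate 1 and the Acss2 knockout G18.5 value to 1.70 (0.0228) without its replicate 1. The Acss2 knockout call at G14.5 was lost without G0 replicate 2 (2.00, 0.0635) or G14.5 replicate 1 (1.60, 0.0766) and with limma on deposited values (0.052), and the p300 knockout call without G0 replicate 1 (2.21, 0.0527). The Stat3 knockout call was lost without G0 replicate 1 (0.115), G0 replicate 2 (0.0952) or G14.5 replicate 1 (1.03, 0.306), with limma on mean CPM (1.48, 0.139) and with only the compared groups in the fit (0.0876). On the high-fat diet the Acss2 wild-type call was lost without G0 replicate 1 (2.66, 0.155) or G14.5 replicate 2 (2.84, 0.103), and the knockout call without G0 replicate 1 (1.95, 0.146), G14.5 replicate 1 (0.127) or G14.5 replicate 2 (0.0665), with limma on mean CPM (0.0585) and with only the compared groups in the fit (0.148). Without G0 replicate 2 these last 2 folds grew to 4.39 (0.0178) and 4.47 (0.00571).

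Gadd45b was called in 0 of the 13 comparisons of pregnancy with G0 outside the time course (edgeR; unadjusted values in 2 p300 comparisons and 1 Stat3 comparison were under the threshold). Its log2 folds ran from -0.51 ± 0.40 (HFD) to 0.99 ± 0.32 (Stat3 knockouts, G18.5), and 4 of the 13 were below 0. The largest passed without G18.5 replicate 1 (1.43, adjusted p = 0.0211). In DESeq2 none was called. The G14.5 value of the time course, 2.24, was thus larger than each of these 13, beside a G0 pair that was lower than every other G0 library.

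Gadd45g was called higher in 3 of the 13: in Acss2 knockouts at G14.5 (100.8 and 134.7 to 243.1 and 263.3 CPM, 2.15-fold, adjusted p = 0.00472) and G18.5 (193.4 and 248.2 CPM, 0.91 ± 0.20, 0.0237), and in high-fat-diet Acss2 wild types (110 and 99.1 to 239.8 and 277.3 CPM, 1.31 ± 0.21, 0.00237), by edgeR. All 13 folds were above 0, and DESeq2 called 8 of the 13. Over all genes and comparisons DESeq2 made 32157 calls, against 15026 in edgeR. The edgeR shares of all genes called in the 13 comparisons stand with Gadd45a above. For the 3 edgeR calls they were 4.35%, 2.47% and 1.93%, in the order given. The first was lost without G0 replicate 1 (0.91, 0.0661) and the second without G0 replicate 1 (0.713, 0.267) or G18.5 replicate 2 (0.716, 0.102) and with only the compared groups in the fit (0.0861). Calls were gained in Acss2 wild types at G14.5 (0.0116) and G18.5 (0.917, 0.0221) without G0 replicate 2, in Stat3 knockouts at G18.5 (1.31, 0.0144) without G0 replicate 1 and in p300 wild types (0.836, 0.0301) without G0 replicate 1. On the high-fat diet Gadd45g was lower at P7NL (182.8 CPM in the higher library) than at G14.5 (313.0, 308.8 and 293.1 CPM), by -0.90 ± 0.20 (adjusted p = 0.0253; 1.32% of genes called). That call was lost without G14.5 replicate 1 (0.0742) or 3 (0.0616) and without P7NL replicate 1 (0.0811) or 2 (-0.737, 0.36), and with the replicate number as a block (-0.933, 0.0555). Gadd45a in the same comparison stood at 4.17 and 4.37 CPM against 12.52 to 21.48 CPM (-2.03 ± 0.66, 0.155), and Gadd45b overlapped.

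**Figure D2:**
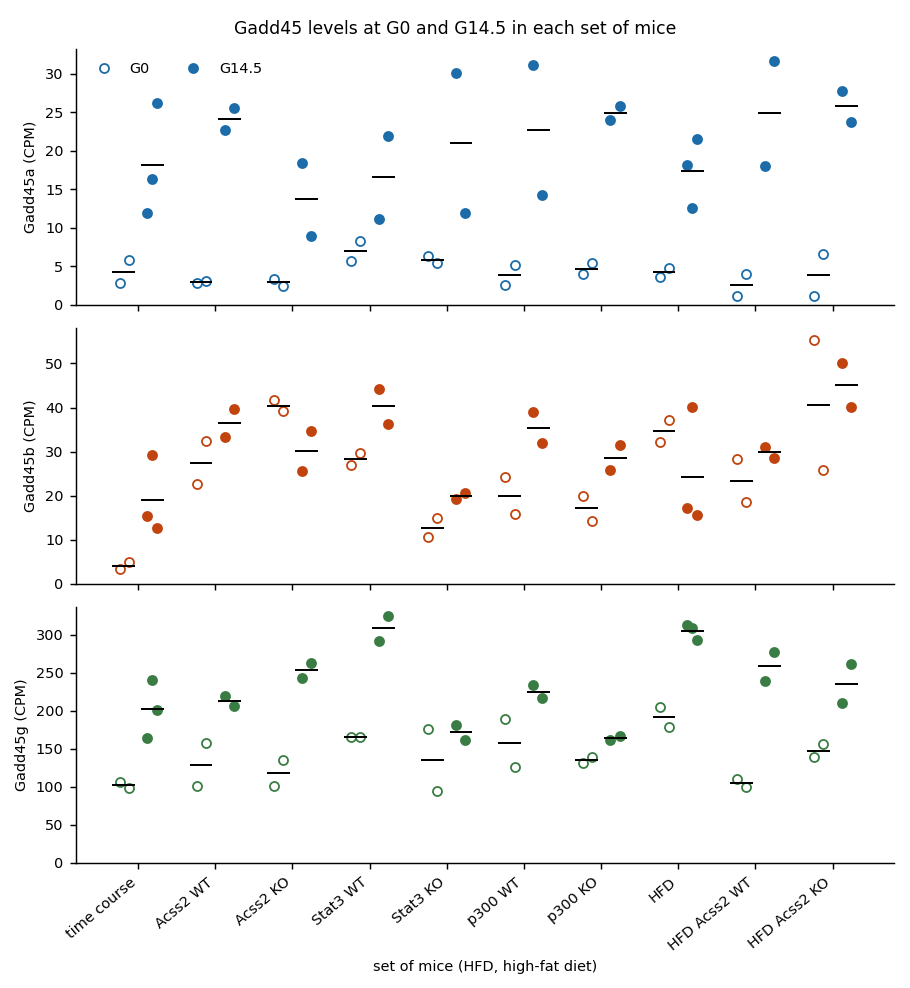
Level of each gene in CPM (linear axes) at G0 (open points) and G14.5 (filled points) in the time course and the 9 other sets of mice; bars are group means. Gadd45a lies higher at G14.5 in every set, while the time-course G0 pair of Gadd45b (3.36 and 4.83 CPM) lies below every other G0 library.

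Libraries labelled Acss2, Stat3 or p300 knockout were compared with wild types 10 times, and none of the 3 genes was called (edgeR). Of all genes, 0.00711%, 0.0213% and 0.149% were called (Acss2 at G0, G14.5 and G18.5), 0.0%, 0.0098% and 0.0196% (Stat3), 1.54% and 0.0% (p300 at G0 and G14.5), and 0.0% and 0.0638% (Acss2 on the high-fat diet). Where the share was 0.0% no gene was called, not even the targeted one. A missing call there does not show that a member was unaffected. Unadjusted p-values were under 0.05 in 3 of the 10 for Gadd45b and 3 for Gadd45g, and the lowest for Gadd45a was 0.05 (Acss2 at G14.5, -0.82 ± 0.39, adjusted p = 0.477); DESeq2 called 0 for Gadd45a, 1 for Gadd45b and 0 for Gadd45g. The lowest unadjusted values were those of the Stat3 table. Gadd45b read 10.6 and 14.9 CPM in the libraries labelled Stat3 knockout and 26.9 and 29.6 CPM in wild types at G0, a log2 fold of -1.15 ± 0.32 (edgeR p = 0.00236, adjusted p = 0.273). At G14.5 it read 19.3 and 20.6 against 44.2 and 36.3 CPM, -1.01 ± 0.31 (edgeR p = 0.00533, adjusted p = 0.38), and at G18.5 the groups overlapped at -0.15 ± 0.31 (adjusted p = 1). At G14.5 summed immune markers were 50.7 and 56.6 CPM in the libraries labelled Stat3 knockout and at least 99.4 CPM in wild types, and δ-cell markers at most 163 against 283 and 302 CPM; their part in the result was not tested. Gadd45g in the same G14.5 libraries read 181.9 and 161.3 against 291.9 and 325.0 CPM, -0.85 ± 0.26 (edgeR p = 0.00475, adjusted p = 0.371). Gadd45b in Acss2 knockouts at G18.5 (29.9 and 56.9 against 18.9 and 28.9 CPM; 0.86 ± 0.28, adjusted p = 0.252) passed in DESeq2 (adjusted p = 0.0436).

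The change of a knockout effect between stages was called for none of the 3 genes in 6 tests by edgeR, with 1 unadjusted p-value under 0.05 for Gadd45b and 1 for Gadd45g. The shares of all genes called for these interactions were 0.0213% and 0.0142% (Acss2 at G14.5 and G18.5), 0.0% and 0.0392% (Stat3), 0.0668% (p300) and 0.0142% (Acss2 on the high-fat diet). For Gadd45a the interaction was -0.80 ± 0.56 for Acss2 at G14.5 and -0.12 ± 0.55 for p300, so a difference of the gestational rise between genotypes was not detectable at this spread. The Stat3 interaction of Gadd45b at G18.5 was 1.00 ± 0.44 (edgeR adjusted p = 0.657).

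**Figure D3:**
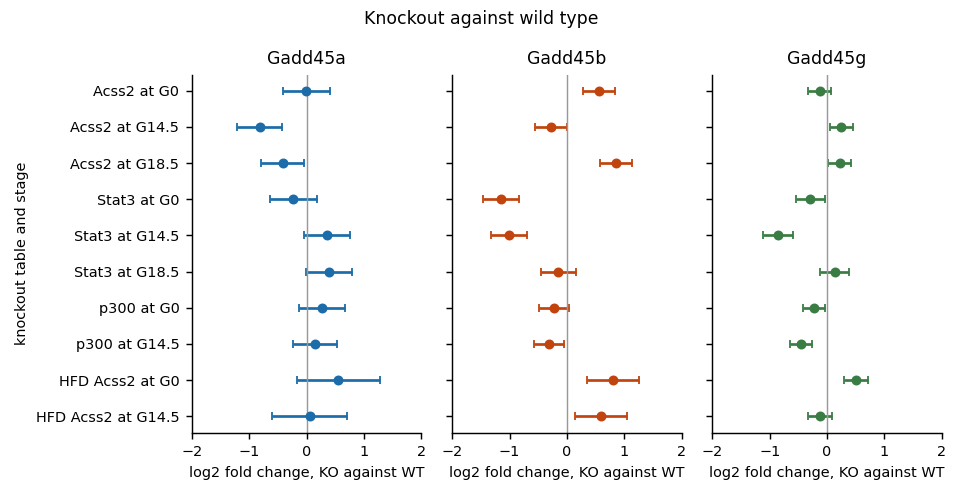
Log2 fold change of each gene between knockout and wild type (horizontal axes) in the 10 knockout comparisons (vertical axis); points are edgeR estimates and bars 1 standard error. Most values lie within 1 of 0, the Gadd45b values for Stat3 at G0 and G14.5 are the lowest, and none passed adjustment over all genes.

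In culture, A485 lowered the 3 genes in normal serum. Gadd45a read 22.8 and 16.6 CPM with vehicle and 5.90 and 6.98 CPM with A485 (log2 fold -1.61 ± 0.37, edgeR adjusted p = 0.0471), Gadd45b 55.4 and 22.1 against 4.94 and 8.76 CPM (-2.49 ± 0.41, 0.0105), and Gadd45g 154.5 and 177.4 against 117.1 and 80.2 CPM (-0.75 ± 0.17, 0.0455), beside 2.57% of all genes. For these 3 genes no A485 library overlapped a vehicle library, but how many of all genes did the same was not counted. The share of thinned cells with a Gadd45b read was 22.5% and 28.4% with A485 and 52.8% and 41.4% with vehicle. In maternal serum Gadd45a fell from 26.8 and 55.6 to 7.35 and 11.96 CPM (-2.10 ± 0.37, 0.0116; 3.3% of genes), while Gadd45b (40.7 and 33.8 to 20.1 and 15.9 CPM; -1.05 ± 0.38, 0.168) and Gadd45g (280.8 and 290.2 to 175.4 and 186.4 CPM; -0.66 ± 0.17, 0.0612) did not overlap but missed the threshold. The Gadd45g value passed in DESeq2 (adjusted p = 0.00114) and with the replicate block (0.0455). The test of a difference between the sera called no member (0.00738% of genes; Gadd45b 1.44 ± 0.54, adjusted p = 0.98).

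These A485 calls were sensitive to single libraries. In normal serum the Gadd45a call was lost without vehicle replicate 1 (-1.34, adjusted p = 0.151), A485 replicate 1 (-1.49, 0.237) or A485 replicate 2 (-1.73, 0.156), and the Gadd45g call without vehicle replicate 1 (0.0648) or 2 (-0.635, 0.123) or A485 replicate 2 (-0.502, 0.28). The Gadd45b call was lost without A485 replicate 1 (-2.13, 0.0926), and without vehicle replicate 1 the fold was -1.67 (0.0198). In maternal serum the Gadd45a call was lost without A485 replicate 1 (-1.78, 0.0863), and without vehicle replicate 2 the fold was -1.47 (0.0323). Weighting cells equally (limma on the mean CPM over cells) ended the normal-serum calls of Gadd45a (-0.785, 0.147) and Gadd45g (-0.276, 0.305), as did limma on deposited values (0.115 and 0.0695). The Gadd45a call was also lost without the insulin genes (0.0521) and the Gadd45g call with only the compared groups in the fit (0.0926). Summed δ-cell markers were 550 and 2570 CPM with vehicle and 196 and 211 CPM with A485 in normal serum, and β-cell markers 656000 and 658000 against 519000 and 540000 CPM; their part in the result was not tested.

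Nifuroxazide took Gadd45b to its lowest levels in the series, in normal serum. It read 12.8 and 15.2 CPM with vehicle and 0.683 and 0.335 CPM with nifuroxazide, which were 13 reads in 5 of 21 cells and 7 reads in 4 of 21 cells. The log2 fold was -4.78 ± 0.46 (edgeR adjusted p = 0.000164; 1.99% of genes called), and -5.37 without nifuroxazide replicate 1. In maternal serum Gadd45b went from 36.6 and 25.5 to 9.81 and 13.5 CPM (-1.41 ± 0.36, 0.124; 0.697%), without overlap, and this passed in DESeq2 (adjusted p = 0.0113). The difference between the sera, 3.37 ± 0.57, missed the threshold in edgeR (adjusted p = 0.167; 0.0% of genes called), passed in DESeq2 (0.000189), and passed in edgeR without maternal-serum vehicle replicate 1 (3.66, 0.0357). Each nifuroxazide library in normal serum held 21 cells.

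The other members were not called. With nifuroxazide in normal serum Gadd45a read 32.9 and 31.5 CPM against 19.3 and 27 CPM (0.48 ± 0.35, edgeR adjusted p = 0.574) and Gadd45g 87.1 and 86.9 against 112.6 and 193.1 CPM (-0.81 ± 0.23, 0.0924), the latter called without vehicle replicate 1 (-1.15, 0.0176). In maternal serum Gadd45a was 21.5 and 32.96 against 33.2 and 77.8 CPM (-1.03 ± 0.35, 0.304), called without vehicle replicate 1 (-1.51, 0.027), and Gadd45g 151.9 and 143.5 against 210.1 and 274.7 CPM (-0.71 ± 0.22, 0.247). Summed α-cell markers were 2400 and 4470 CPM with vehicle and 987 and 1270 CPM with nifuroxazide in normal serum; their part in the results was not tested.

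Maternal serum was compared with normal serum 4 times. With vehicle no member was called in either set, beside 0.657% and 1.02% of all genes. Gadd45a was higher in maternal serum in both, by 1.07 ± 0.36 (edgeR adjusted p = 0.258) and 1.26 ± 0.35 (0.149), with no overlap, and each was called when maternal vehicle replicate 1 was left out (1.52, 0.0371, and 1.75, 0.00694). Gadd45g was higher by 0.78 ± 0.17 (0.0783) and 0.67 ± 0.22 (0.274), the latter called without normal-serum vehicle replicate 2 (0.0475). Gadd45b overlapped in 1 set (-0.04 ± 0.38, 0.985) and stood higher in the other (1.15 ± 0.36, 0.216). With A485 present (0.288% of genes called) Gadd45b was higher by 1.40 ± 0.39 (0.295) and Gadd45g by 0.87 ± 0.17 (0.0683), which passed in DESeq2 (0.034 and 4.4e-05) and, for Gadd45g, without normal-serum A485 replicate 1 (1.17, 0.0261). With nifuroxazide present (0.49% of genes called) Gadd45b was called higher by 4.52 ± 0.46 (0.000263), and by 5.11 without normal-serum nifuroxazide replicate 1, a fold set against the 13 and 7 reads of the normal-serum libraries.

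**Figure D4:**
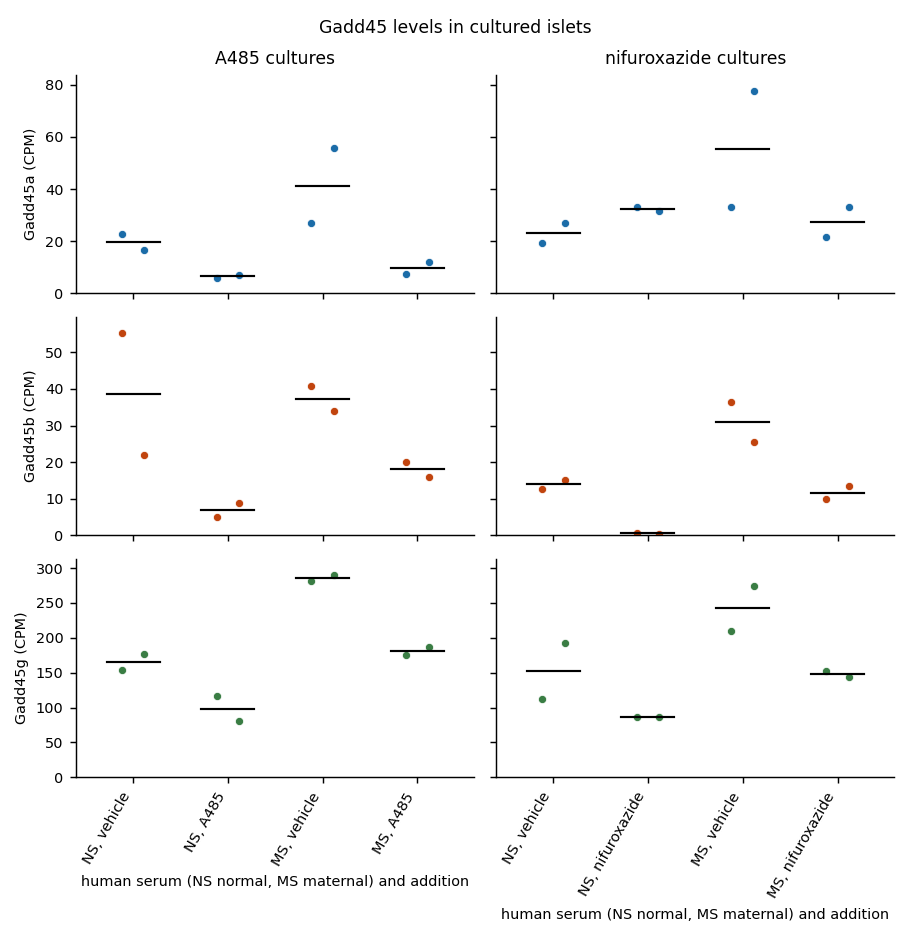
Level of each gene in CPM (linear axes from 0) in the 8 culture groups, with points for libraries and bars for means; A485 and nifuroxazide sets were normalized separately. All 3 genes are lower with A485 in both sera, and Gadd45b is near 0 with nifuroxazide in normal serum.

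The known partners and inducers of the family were counted beside the members, from lists written with earlier results of these data known. At G14.5 against G0, where 10.1% of all genes were called, 1 of 22 tested partner and p38/JNK genes was higher, the replication clamp Pcna (0.92 ± 0.24, edgeR adjusted p = 0.0104), and 1 was lower, the p38 kinase Mapk14 (-0.40 ± 0.13, 0.0404). The kinase Map2k7 was not called (-0.46 ± 0.15, 0.0511), and no value of Map3k4 is given here. Of 16 integrated stress response genes 5 were higher and 0 lower (median log2 fold 0.68, all genes 0.01), among them Nupr1, a stress-induced chromatin protein (1.83 ± 0.27, 2.57e-05), Phgdh, an enzyme of serine synthesis (1.04 ± 0.24, 0.00393), and Cebpg, a partner of ATF4 (0.77 ± 0.22, 0.02). The cystine transporter gene Slc7a11 was also called, with 0 reads in both G0 libraries and 212, 41 and 43 reads at G14.5. Ppp1r15a (Gadd34), a phosphatase subunit of that response, did not pass (-0.06 ± 0.25, 0.938). Of 19 p53 targets 0 were called in either direction (median -0.11), and Cdkn1a read 21.8 and 38.2 CPM at G0 and 12.8 to 33.9 CPM at G14.5.

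Of 14 NF-κB targets 1 was higher, the inhibitor Nfkbia (0.53 ± 0.17, edgeR adjusted p = 0.0424), and 0 were lower. Of 12 TGF-β/SMAD targets 1 was higher, the feedback regulator Skil (0.63 ± 0.17, 0.0169), and of 20 immediate-early and dissociation genes 1 was higher, Jund (0.59 ± 0.18, 0.0295). FoxO targets had 1 of 15 higher, Txnip, a thioredoxin inhibitor (1.47 ± 0.37, 0.00992), and 1 lower, the cell-cycle inhibitor Cdkn1b (-0.60 ± 0.16, 0.0104). Glucocorticoid-induced genes had 2 of 7 lower, Sgk1 (-1.95 ± 0.60, 0.0338) and Fkbp5 (-1.04 ± 0.25, 0.00669).

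In the cultures some members of these lists were called with A485, beside 3.3% of all genes in maternal serum and 2.57% in normal serum. A485 in maternal serum lowered 6 of 19 p53 targets and raised 0 (median -1.72, all genes -0.01): Plk2, a stress-induced kinase, read 55.6 and 16.8 CPM with vehicle and 3.74 and 2.14 CPM with A485, Tnfrsf10b, a death receptor, (-2.63 ± 0.47 on the log2 scale, edgeR adjusted p = 0.0127) and Phlda3, an Akt inhibitor (-2.43 ± 0.43, 0.0127), fell, and Eda2r read 1.89 and 3.56 against 0.0378 and 0.254 CPM. Cdkn1a, a binding partner of Gadd45 proteins, fell in both sera (-1.88 ± 0.44, 0.0482, and -2.04 ± 0.44, 0.0293). In normal serum A485 lowered 2 and raised 1 of 19 p53 targets (median -1.43), and lowered 2 of 16 stress response genes, Psat1 (-2.15 ± 0.50, 0.0471) and Ddit3 (-1.30 ± 0.18, 0.00541). Immediate-early genes split: with A485 in normal serum 6 of 18 rose, Fosb by 1.80 ± 0.30 (0.0111) and Zfp36 by 1.16 ± 0.21 (0.0181) among them, and 2 fell, Klf6 (-2.32 ± 0.37, 0.00983) and Klf4 (21.8 and 15.2 to 1.92 and 0.934 CPM).

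Some stress response genes rose with nifuroxazide. In normal serum, beside 1.99% of all genes called, 3 of 16 were higher and 1 lower, with Ddit3 (CHOP), a transcription factor of that response, up by 2.71 ± 0.18 (edgeR adjusted p = 4.24e-06), Nupr1 by 2.10 ± 0.22 (0.000281) and Trib3 by 2.03 ± 0.21 (0.000281), and Phgdh down (-1.20 ± 0.27, 0.0358). In maternal serum, beside 0.697% of all genes, 4 of 16 were higher, Trib3 (2.64 ± 0.22, 5.58e-05), Nupr1 (2.09 ± 0.22, 0.000373), Ddit3 (1.84 ± 0.17, 0.000209) and Sesn2 (0.93 ± 0.18, 0.033). Of 11 NF-κB targets 0 were called in either serum, and of 11 TGF-β/SMAD targets Klf10 fell in normal serum (-1.82 ± 0.29, 0.00495). The genes Ddit3 and Gadd45b therefore moved in opposite directions with nifuroxazide and in the same direction with A485, both in normal serum.

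The genes whose time-course pattern was most like each member were ranked among 7198 genes by Pearson's r over the 16 group means, a description over shared libraries. For Gadd45a they were Wipi1 (r = 0.975), Acyp2 (0.942), Btg3 (0.934), Oxtr (0.933) and Ezr (0.930), and in the other tables, centred per table, their r was 0.925, 0.883, 0.705, 0.849 and 0.915. For Gadd45g they were Dnpep (0.962), Smim14 (0.935), Armc10 (0.931), Pgm3 (0.927) and Hsd3b7 (0.926), with 0.645 to 0.846 in the other tables. For Gadd45b they were Nfkb1 (0.867), Stk38l (0.855), Klf5 (0.815), Ccnt2 (0.803) and Klf11 (0.786), and in the other tables these read 0.109, 0.298, 0.333, 0.0446 and 0.275. The genes most like Gadd45a and Gadd45g in the time course thus stayed alike elsewhere to a higher r than those most like Gadd45b. The 16 groups include G0 and G3.5, whose Gadd45b levels led to the choice of the family. The Gadd45b ranking draws on those levels, so its lower r elsewhere cannot be separated from that choice.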

How the data were processed

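Per the labels' protocols, islets were isolated with collagenase, dispersed and sorted by flow cytometry, and each sample is 1 cell. Per the submitters' processing notes, reads were handled with Trimmomatic 0.39 and featureCounts 2.0.1 on GRCm38 (mm10), and Cell Ranger 3.1.0 is named too. No source used here gives the aligner, annotation or strand setting. The deposited values used are whole-number read counts per gene and cell, from the authors. The authors also deposited normalized values, treated here as a score: genes other than insulin sum to 100000 per cell in the pregnancy, Acss2 and high-fat-diet tables, and to between 74540 and 154238 in the A485 and nifuroxazide tables. The gene lengths deposited with the counts served for levels per kilobase. Columns were matched to samples by name.

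Per group and replicate, the counts of all cells were added up, and each table got its own model in edgeR 4.0.16 (TMM, filterByExpr, quasi-likelihood test) in R 4.3.3, with Benjamini-Hochberg adjustment over all genes tested in a comparison and a call at an adjusted p under 0.05. Each of 53 comparisons and 8 interaction terms was tested. Omitting the stages named in the report, 60 tests were read for Gadd45a and for Gadd45g and 46 for Gadd45b. Alternatives were other size factors, no filter, DESeq2 1.42.0, limma 3.58.1 on log2 values of mean CPM (pseudocount 1) or of the deposited values (pseudocount 0.1), a replicate block, only the compared groups, no insulin genes, no cells with over 5% of reads in other hormones, and each library left out. The procedure was also run on simulated counts with known changes placed only in genes with many reads and with a fixed spread. That run does not test it at the low counts of some libraries here. The members and gene lists were chosen with earlier results of these data known. Named genes are the members, the knocked-out genes, a few fixed stress genes, the 5 genes most like each member (log2 of CPM plus 1, mean of at least 10 CPM) and up to 4 called genes per list with the largest fold. Tables were made with Python 3.11.15.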

Additional observations from a re-analysis of the deposited data

How the results depend on the processing

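No called difference of the 3 genes changed direction under any alternative run. Counts of calls moved with the choice of test, and the cause was not tested. Over all genes and comparisons 15026 calls were made, 34477 without a filter on low counts, 32157 with DESeq2 and 11022 with only the compared groups in the fit. Without the filter, Gadd45g was called in 12 stages of the time course (7 with it), Gadd45a, Gadd45b and Gadd45g in 3, 1 and 1 comparisons of lactation and delivery (1, 0 and 0), Gadd45b and Gadd45g in 3 and 1 knockout comparisons (0 and 0), in 3 and 9 comparisons of pregnancy in the other tables (0 and 3), Gadd45a and Gadd45b in 1 and 2 interactions (0 and 0), Gadd45a in 1 high-fat-diet comparison (0), the 3 genes in 2, 2 and 4 serum comparisons (0, 1 and 0), and Gadd45b and Gadd45g in 4 and 4 inhibitor comparisons (2 and 1). With DESeq2 these were 2 for Gadd45a in lactation and delivery, 1 for Gadd45b among knockouts, 8 for Gadd45g in pregnancy, 1 interaction for Gadd45b, 1, 2 and 3 for the 3 genes by serum and 4 for Gadd45g by inhibitor. With only the compared groups in the fit, Gadd45a was called in 3 stages of the time course (6 in the reported fit, 4 with RLE size factors and with each limma version, 5 with the replicate block, 7 without the filter), 2 comparisons of lactation and delivery and 1 on the high-fat diet, and Gadd45g in 1 of lactation and delivery and 1 by serum. With limma on mean CPM, Gadd45g was called in 3 serum and 0 inhibitor comparisons and Gadd45a in 1 inhibitor comparison, and the test among 14 time-course groups gave F = 2.84 for Gadd45g. With limma on the deposited values the inhibitor counts were 1 for Gadd45a and 0 for Gadd45g, and without insulin genes 1 for Gadd45a.

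Libraries with the same replicate number deviated together little over all genes. The median correlation of same-numbered deviations ran from -0.00886 to 0.0177 by table (range -0.167 to 0.143). Taken over all genes, it cannot show that the samples were not paired. With the replicate block Gadd45g was called in 0 high-fat-diet, 1 serum and 2 inhibitor comparisons, against 1, 0 and 1 without it.

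Leaving out 1 library at a time, with the dispersion trend of the full data kept, calls of Gadd45a ranged from 1 to 6 in the time course, 0 to 1 in lactation and delivery, 8 to 9 in pregnancy in the other tables, 0 to 1 by serum and 1 to 3 by inhibitor. Those of Gadd45b ranged from 0 to 1 in pregnancy, 0 to 1 for interactions and 1 to 2 by inhibitor. Those of Gadd45g ranged from 4 to 8 in the time course, 1 to 5 in pregnancy, 0 to 1 on the high-fat diet, 0 to 1 by serum and 0 to 2 by inhibitor. Of the called comparisons, 5 of 18 for Gadd45a, 2 of 3 for Gadd45b and 4 of 12 for Gadd45g held without each library. With 2 or 3 libraries a group, a lone remaining library is assumed to vary like the other groups. DESeq2, only-compared-groups and leave-one-out versions of the test among 14 groups were not run.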

Other observations

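Within libraries, Gadd45g was compared over cells with a few immediate-early and stress genes. The median Spearman rho over cells was 0.236 for Gadd45g with Fos, above 0 in 94 of 100 libraries, 0.212 with Egr1 (93 of 100), 0.177 with Jun (79 of 88) and 0.04 with Atf3 (17 of 28). With the FoxO target Txnip it was 0.186 (93 of 100). For Gadd45b the highest of the genes examined was Txnip, at 0.123 (79 of 98). Among the family, Gadd45b and Gadd45g had a median of 0.111 (78 of 98), while Gadd45a had -0.0321 with Gadd45b (40 of 97) and 0.00505 with Gadd45g (50 of 99). Cells of a library share its depth and its plate, the counts of Gadd45a and Gadd45b are sparse, and these values are descriptions with no test.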
